A study of Homo sapiens with 7 samples.

Results

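HERV-K HML-2 is represented in the repeat annotation by the internal region HERVK-int and by 4 families of long terminal repeats (LTRs), LTR5_Hs, LTR5A, LTR5B and LTR5. The rows with these 5 repeat names were taken from the sheets of families and of single loci in both deposited workbooks. They are 5 of 500 repeat families and 1613 of 712115 annotated loci in the first workbook (set 1), and 1568 of 703140 loci in the second (set 2). LTR5_Hs had 643 copies in set 1, LTR5B 431, LTR5A 264, HERVK-int 255 and LTR5 20. The 45 rows given only in set 1 held at most 3 reads in a library.

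Double-stranded RNA was pulled down with the J2 antibody from HCT116, a human colon carcinoma cell line, after digestion of single-stranded RNA, and was sequenced as 7 libraries. The groups were PBS, 5-Aza-CdR (an inhibitor of DNA methylation, given at 0.3 µM with the medium replaced after 24 h and cells kept to day 5), Vc and Combination. The labels define neither Vc nor Combination, which in the published account are vitamin C and 5-Aza-CdR with vitamin C. Set 1 held 1 library each of PBS, 5-Aza-CdR and Combination, and set 2 held 1 each of PBS, Vc, 5-Aza-CdR and Combination, with duplicates marked. All groups are 1 cell line, and whether libraries of the same treatment came from separate cultures is not known. The p-values rest on a spread between these libraries that may be technical. That spread was largely pooled over families in the family fit and wholly pooled over loci in the locus fit.

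HML-2 is the most recently active group of endogenous retroviruses in the human genome. A complete provirus carries an internal region with the viral genes between an LTR at each end, and recombination between the LTRs leaves a solitary LTR behind. LTR5_Hs is the youngest of its LTR families and LTR5B the oldest, and LTRs hold the promoter of the provirus, which DNA methylation is known to silence in many cell types.

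The family sheets held between 11531 and 32403 reads per library. The 5 HML-2 families took 179 reads under PBS, 137 under 5-Aza-CdR and 117 under Combination of set 1. In set 2 they took 425 for PBS, 428 for Vc, 706 for 5-Aza-CdR and 840 for Combination. They made up 0.774% of family reads in PBS of set 1 and 2.19% in PBS of set 2. In a joint fit of all 7 libraries, LTR5_Hs was 2.99 log2 units higher in set 2 than in set 1 (95% interval 2.36 to 3.63, edgeR quasi-likelihood adjusted p = 0.000178). In the same contrast LTR5A was 2.13 higher (adjusted p = 0.00226), LTR5B differed by 0.05 (adjusted p = 0.955) and HERVK-int by -1.23 (adjusted p = 0.066), with 7.95% of the 352 families tested called. The culture, library and processing of a set cannot be told apart, so treatments were compared within each set, with counting intervals and no test, and jointly with set as a term in the fit.

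LTR5_Hs, the youngest LTR family, held the most HML-2 reads in each library of set 2, and its share was highest after 5-Aza-CdR in each set. In set 1 it had 58 reads under PBS, 44 under 5-Aza-CdR and 40 under Combination, which were 0.251%, 0.382% and 0.279% of family reads. In set 2 it had 274 reads for PBS, 310 for Vc, 588 for 5-Aza-CdR and 657 for Combination, or 1.41%, 1.68%, 2.50% and 2.03% of family reads. Relative to PBS of set 2, the share was 1.77 times as high after 5-Aza-CdR (exact 95% interval 1.53 to 2.06), 1.44 times after Combination (1.25 to 1.66) and 1.19 times after Vc (1.01 to 1.40). For set 1 these ratios were 1.52 after 5-Aza-CdR (1.004 to 2.29) and 1.11 after Combination (0.725 to 1.70). Within set 2 the Combination share was 0.811 times the 5-Aza-CdR share (0.725 to 0.908). Intervals and floors treat reads as independent and cover counting error alone. Sequenced PCR copies are not independent molecules, so intervals are too narrow where such copies were counted. Whether duplicates were marked in set 1 is not stated. In the joint fit, LTR5_Hs was 0.94 log2 units higher after 5-Aza-CdR (95% interval 0.19 to 1.68, edgeR adjusted p = 0.242) and 0.66 higher after Combination (-0.08 to 1.40, adjusted p = 0.581), and did not pass the threshold. Its Vc change in that fit, which rests on 1 Vc library, was -0.02. Without the PBS library of set 1 the LTR5_Hs changes were 1.29 after 5-Aza-CdR and 1.04 after Combination. That fit assumes that the remaining PBS library varies like the others, so its p-values are not given. Without the PBS library of set 2 the changes were 0.53 after 5-Aza-CdR and 0.28 after Combination. The Combination value was also 0.28 without the Combination library of set 2.

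LTR5A, an older LTR family, took a smaller share of reads after 5-Aza-CdR and Combination of set 2 than in PBS. It had 93 reads for PBS, 77 for Vc, 46 for 5-Aza-CdR and 79 for Combination, and 19, 7 and 15 for PBS, 5-Aza-CdR and Combination of set 1. In set 2 its share was 0.409 times that of PBS after 5-Aza-CdR (exact 95% interval 0.281 to 0.588), 0.51 times after Combination (0.373 to 0.696) and 0.871 times after Vc (0.635 to 1.19). Without LTR12 and HERV9 in the total, the set 2 values were 0.516 after 5-Aza-CdR (0.354 to 0.742) and 0.699 after Combination (0.511 to 0.953). On the full total the set 1 intervals were wide, at 0.739 after 5-Aza-CdR (0.263 to 1.84) and 1.28 after Combination (0.603 to 2.65). In the joint fit LTR5A was -0.71 log2 units from PBS after 5-Aza-CdR (edgeR adjusted p = 0.573) and -0.11 after Combination (adjusted p = 0.911). Without the PBS library of set 1, the 5-Aza-CdR value was -0.89, and without that of set 2 it was -0.21.

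The balance between LTR5_Hs and LTR5A needs no scaling between libraries, because it is read within each one. Pairs of families were not among the planned comparisons, and this balance restates the counts given above. In set 2 there were 2.95 LTR5_Hs reads per LTR5A read for PBS, 4.03 for Vc, 12.8 for 5-Aza-CdR and 8.32 for Combination. That is 4.34 times the PBS balance after 5-Aza-CdR (exact 95% interval of the odds ratio 2.92 to 6.50) and 2.82 times after Combination (2.00 to 3.99), against 1.37 times after Vc (0.956 to 1.96). The balance in set 1 was 3.05 for PBS, 6.29 for 5-Aza-CdR and 2.67 for Combination, with intervals of the change that ran from 0.742 to 6.29 and from 0.371 to 2.09. After 5-Aza-CdR and Combination of set 2, the other pairs changed less. LTR5_Hs per LTR5B in set 2 was 1.67 times PBS after 5-Aza-CdR (1.02 to 2.72) and 1.55 after Combination (0.962 to 2.48). Per HERVK-int it was 2.62 (1.32 to 5.28) and 1.35 (0.749 to 2.39), and 2.49 after Vc (1.11 to 5.99). In set 1 these were 1.11 and 1.30 per LTR5B, and 0.745 and 1.02 per HERVK-int, with intervals that included 1.

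The values of set 1 depended on the scale. This set is the one that also gives a tRNA number for each library (232558 for PBS, 38200 for 5-Aza-CdR and 15946 for Combination). Per tRNA read, LTR5_Hs was 4.62 times PBS after 5-Aza-CdR and 10.1 times after Combination, and HERVK-int 6.20 and 9.91 times. On that scale LTR5A, below PBS after 5-Aza-CdR per family read, was at 2.24 times PBS (exact 95% interval 0.797 to 5.57), and at 11.5 times after Combination (5.44 to 23.9). LTR5B was at 4.14 and 7.76 times. Whether the tRNA reads come from the same pull-down is not known.

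**Figure D1:**
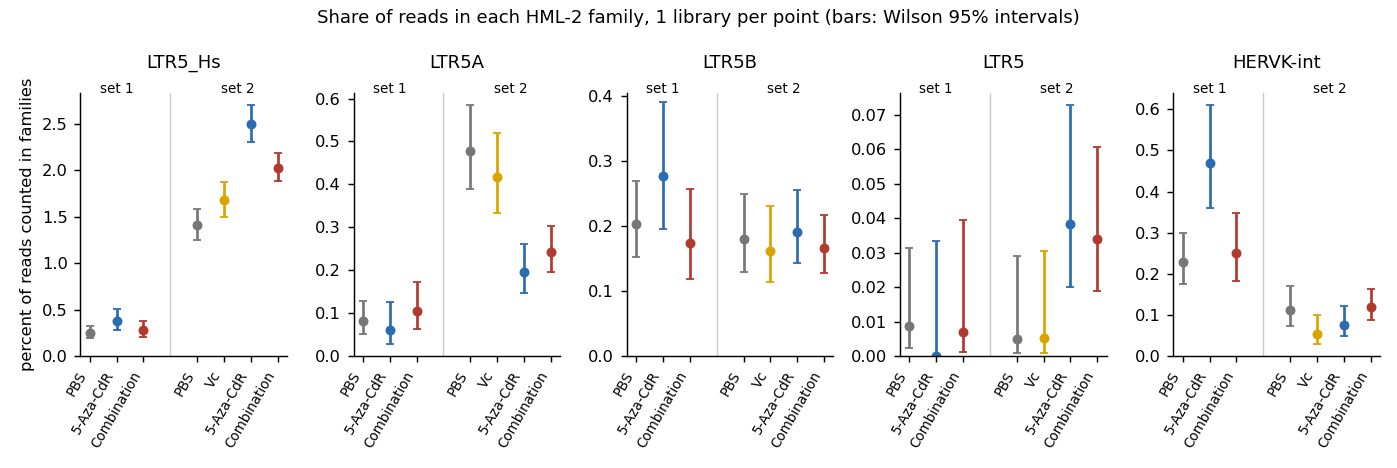
Share of the reads counted in families (percent, vertical axis, a separate scale in each panel) for each HML-2 family in each of 7 libraries, with PBS in grey, Vc in yellow, 5-Aza-CdR in blue and Combination in red; bars are Wilson 95% intervals. In set 2 LTR5_Hs went from 1.41% in PBS to 2.50% after 5-Aza-CdR, while LTR5A went from 0.478% to 0.196%.

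LTR5B, the oldest family, had a similar share of reads in each library, between 0.162% and 0.278%. It had 47, 32 and 25 reads in PBS, 5-Aza-CdR and Combination of set 1, and 35, 30, 45 and 54 in PBS, Vc, 5-Aza-CdR and Combination of set 2. Each ratio to PBS had an interval that included 1, from 0.859 (0.507 to 1.42) after Combination of set 1 to 1.37 (0.843 to 2.19) after 5-Aza-CdR of set 1. Its fitted log2 changes were 0.46 after 5-Aza-CdR (edgeR adjusted p = 0.678) and 0.14 after Combination (adjusted p = 0.879). By length, LTR5B copies under 900 bases held 25, 9 and 6 reads in PBS, 5-Aza-CdR and Combination of set 1. Those of at least 900 bases held 22, 23 and 19. In PBS, Vc, 5-Aza-CdR and Combination of set 2, the shorter copies held 6, 6, 10 and 18 reads and the longer 29, 24, 35 and 36. LTR5, a name given to 20 mostly short rows with a median length of 82 bases, had 2, 0 and 1 reads in set 1 against 1, 1, 9 and 11 in set 2, and was too low to enter the fit.

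HERVK-int, which covers the viral genes, took 0.229% to 0.468% of family reads in set 1 and 0.0541% to 0.12% in set 2. It had 53 reads under PBS, 54 under 5-Aza-CdR and 36 under Combination of set 1, and 22, 10, 18 and 39 for PBS, Vc, 5-Aza-CdR and Combination of set 2. In set 1 the share was 2.04 times that of PBS after 5-Aza-CdR (exact 95% interval 1.37 to 3.04), but 26 of the 54 reads fell on 1 short copy described below, and without that copy the ratio was 1.06 (0.645 to 1.71). In set 2 the ratios were 0.676 after 5-Aza-CdR (0.342 to 1.32), 1.06 after Combination (0.615 to 1.88) and 0.478 after Vc (0.202 to 1.05). Its fitted log2 changes were 0.55 after 5-Aza-CdR (edgeR adjusted p = 0.678) and 0.43 after Combination (adjusted p = 0.776).

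Of the 4 HML-2 families tested, 0 passed the threshold after 5-Aza-CdR, where 1.42% of all families were called, and 0 after Combination, where 2.56% were called. Their median log2 change was 0.51 after 5-Aza-CdR, against -0.02 over all 352 families, and 0.28 after Combination, against -0.07. Between Combination and 5-Aza-CdR no family of any kind passed by edgeR (percent called 0.0), with 9 at an unadjusted p under 0.05, and none by DESeq2, with 2 at an unadjusted p under 0.05. Of the other HERV-K groups and their LTRs, 20 families were tested and 0 passed in either comparison with PBS, with median changes of -0.05 and 0.28. LTR12C, the LTR of another endogenous retrovirus group, passed in the same fit at 3.16 after 5-Aza-CdR (edgeR adjusted p = 0.0085) and 3.58 after Combination (adjusted p = 0.00246).

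**Figure D2:**
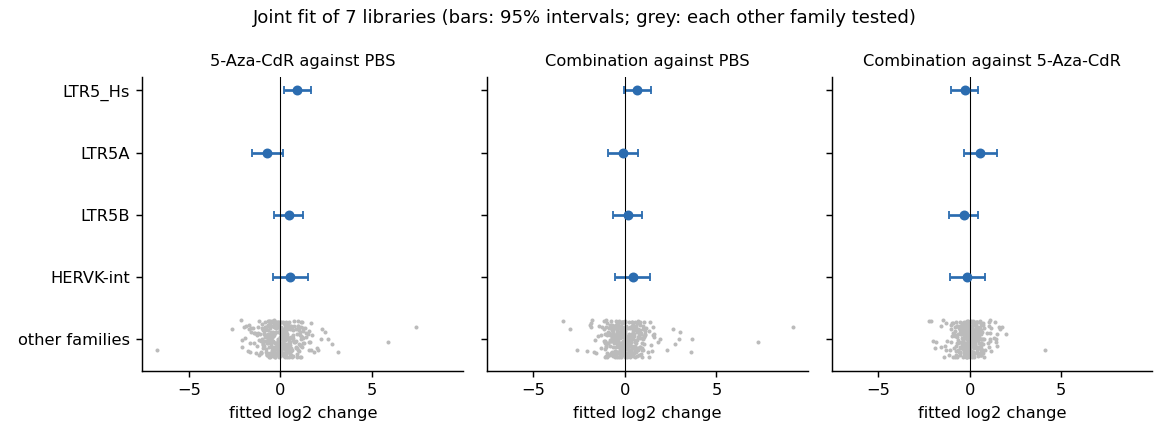
Fitted log2 changes (horizontal axis) of 4 HML-2 families in the joint fit of 7 libraries for each comparison, with 95% intervals, above the other families tested as grey points spread vertically for display. After 5-Aza-CdR the LTR5_Hs interval ran from 0.19 to 1.68, and the changes of the HML-2 families lay within the range of the other families.

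The families most alike in the pattern of the 3 fitted changes were MER52A, HERVS71-int and LTR9B for LTR5_Hs, with summed absolute differences of 0.28, 0.29 and 0.34 log2 units. For HERVK-int they were MER70A, LTR16C and LTR12F, at 0.015, 0.046 and 0.119.

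The reads of LTR5_Hs were spread over many copies in set 2. At least 1 read was found on 132 of 615 copies for PBS (21.5%, Wilson 95% interval 18.4 to 24.9), 152 for Vc (24.7%), 240 for 5-Aza-CdR (39.0%, 35.2 to 42.9) and 265 for Combination (43.1%, 39.2 to 47.0). The most read copy held 13.1% of the family's reads under PBS, 6.97% under 5-Aza-CdR and 5.94% under Combination. Since a deeper library touches more copies, the counts expected at 18495 family reads in each library were computed, and they gave 20.7% for PBS, 24.7% for Vc, 33.8% for 5-Aza-CdR and 30.9% for Combination. At the same depth, the share over all annotated loci was 1.52%, 1.48%, 1.47% and 1.40%. In set 1, between 33 and 34 of 643 LTR5_Hs copies had reads in each library, or 5.13% to 5.29%. At 11531 family reads per library these became 3.21% for PBS, 5.29% for 5-Aza-CdR and 4.36% for Combination, against 0.628%, 1.06% and 1.11% over all annotated loci.

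Of the 615 LTR5_Hs copies, 162 had reads after 5-Aza-CdR or Combination of set 2 and none in PBS or Vc, with at most 5 reads on any of them, and 35 had the reverse pattern. The same counts were 43 and 35 of 261 LTR5A copies, 42 and 22 of 425 LTR5B copies, and 28 and 11 of 247 HERVK-int copies. These counts are not adjusted for depth, which was lower in PBS and Vc (18495 family reads in Vc). The share over all annotated loci is not given here. In raw counts of set 2, not adjusted for the 19450 family reads of PBS, 23528 of 5-Aza-CdR and 32403 of Combination, reads were more numerous after 5-Aza-CdR than in PBS on 191 copies and fewer on 40, and after Combination more numerous on 225 and fewer on 44. In set 1, where PBS was the deepest library, reads were more numerous on 30 and fewer on 28 after 5-Aza-CdR, and more numerous on 31 and fewer on 31 after Combination, over the same 615 copies. No HML-2 copy had 0 reads in both PBS libraries together with at least 3 reads in both libraries of 5-Aza-CdR or of Combination. Between sets, 20 of the 33 LTR5_Hs copies with reads in 5-Aza-CdR of set 1 also had reads in set 2 (60.6%), which were 8.33% of the 240 there, where 39.0% of all LTR5_Hs copies had reads. For PBS 15 of 32 were shared (46.9%, and 11.4% of those in set 2), where 21.5% of all copies had reads, and for Combination 24 of 34 (70.6%, and 9.06%), where 43.1% had.

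LTR5A copies are of similar length to LTR5_Hs copies (medians of 1021 and 965 bases), and their counts by library are set beside them here. Reads fell on 54 of 261 LTR5A copies for PBS of set 2 (20.7%), 36 for Vc (13.8%), 32 for 5-Aza-CdR (12.3%) and 57 for Combination (21.8%). At equal depth these were 20.0%, 13.8%, 10.0% and 13.7%. Of LTR5B, with a median of 983 bases, 23 of 425 copies had reads for PBS (5.41%), 21 for Vc (4.94%), 29 for 5-Aza-CdR (6.82%) and 35 for Combination (8.24%). At equal depth LTR5B was at 5.24%, 4.94%, 5.71% and 5.20%. Of 247 HERVK-int copies 17 had reads for PBS (6.88%), 9 for Vc (3.64%), 14 for 5-Aza-CdR (5.67%) and 32 for Combination (13.0%), of which 26 held 1 read each. At equal depth HERVK-int was at 6.62%, 3.64%, 4.73% and 8.03%. Over all 5 families, 4.40% of copies in PBS of set 1 and 14.5% in PBS of set 2 had reads.

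**Figure D3:**
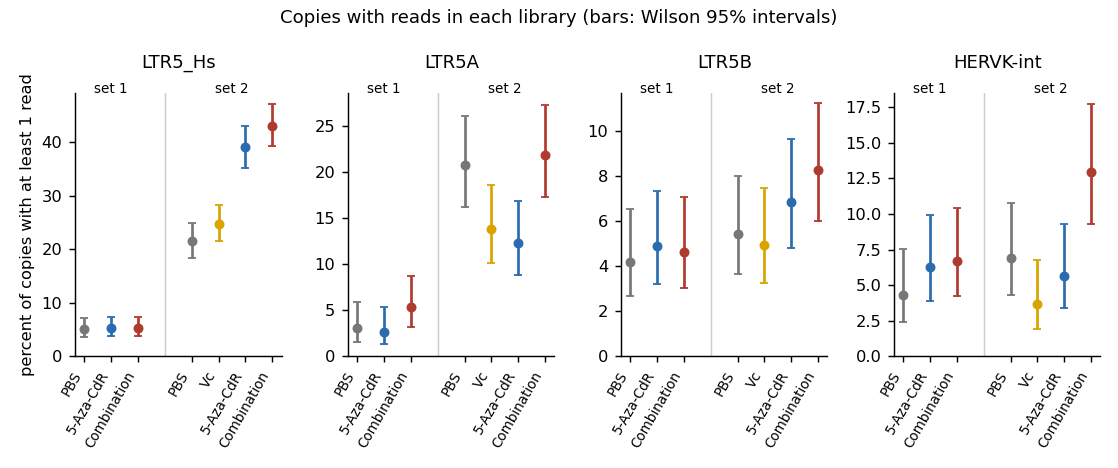
Percent of annotated copies with at least 1 read (vertical axis, a separate scale in each panel) for 4 HML-2 families in each library, with Wilson 95% intervals. LTR5_Hs reached 39.0% after 5-Aza-CdR and 43.1% after Combination of set 2, from 21.5% in PBS, and lay between 5.13% and 5.29% in set 1.

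The most read copies were 6 LTR5_Hs copies on chromosome 1, spread over 3.96 Mb, none joined to an internal region (hg19, 1-based, with neighbouring genes not analysed here). The first, chr1:148356350-148357322 on the minus strand, had 1, 3 and 4 reads in PBS, 5-Aza-CdR and Combination of set 1, and 36, 34, 41 and 39 in PBS, Vc, 5-Aza-CdR and Combination of set 2. The second, chr1:144603414-144604386 on the plus strand, had 4, 1 and 0 reads in set 1 against 20, 18, 25 and 28 in set 2. The other 4 were chr1:146383503-146384490 (+), chr1:147610112-147611084 (-), chr1:148565786-148566758 (+) and chr1:146068276-146069248 (-), each with 70 to 79 reads over the 7 libraries. The 4 copies other than the first 2 had 8 to 14 reads in PBS and Vc of set 2 and 20 to 25 after 5-Aza-CdR and Combination. The sources used here do not give how reads that map to several near-identical copies were assigned, and the division among these copies is uncertain.

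Together these 6 copies held 39.1% of LTR5_Hs reads for PBS of set 2 (Wilson 95% interval 33.5 to 44.9), 29.4% for Vc, 27.4% for 5-Aza-CdR and 23.7% for Combination. Their share of family reads was 1.24 times that of PBS after 5-Aza-CdR (0.968 to 1.60) and 0.875 times after Combination (0.68 to 1.13). The remaining LTR5_Hs copies, with 167 reads under PBS, 427 under 5-Aza-CdR and 501 under Combination, were at 2.11 times (1.76 to 2.54) and 1.80 times (1.51 to 2.16) the PBS share. Within set 1 the 6 copies had 18, 7 and 7 reads, and the remaining copies 40, 37 and 33. A fit without the 6 copies, chosen after seeing the data, gave LTR5_Hs changes of 1.21 after 5-Aza-CdR (edgeR adjusted p = 0.144) and 0.97 after Combination (adjusted p = 0.33).

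**Figure D4:**
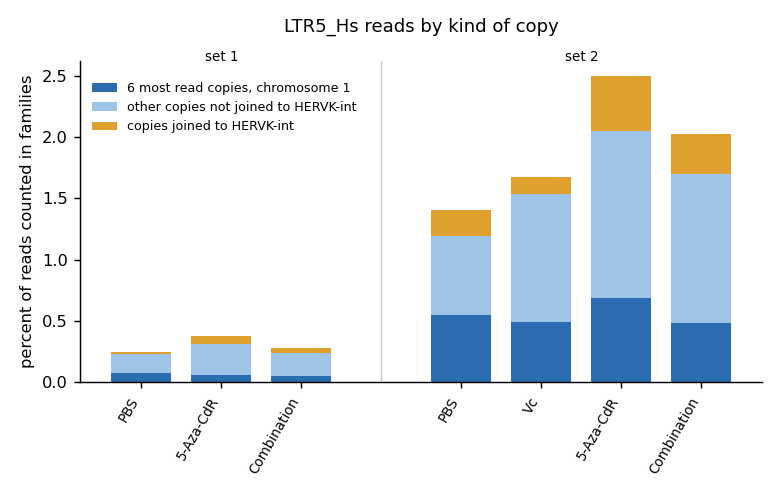
LTR5_Hs reads as percent of the reads counted in families (stacked bars from 0) in each library, split into the 6 most read copies, other copies not joined to HERVK-int, and copies joined to HERVK-int. The 6 copies took 0.55% for PBS, 0.684% for 5-Aza-CdR and 0.481% for Combination of set 2, and the other unjoined copies 0.643%, 1.36% and 1.22%.

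LTR5_Hs copies within 100 bases of an internal region on the same strand were counted as joined, and the rest as solitary. In set 2 the 75 joined copies had 42 reads for PBS, 26 for Vc, 106 for 5-Aza-CdR and 107 for Combination, and the 540 solitary copies 232, 284, 482 and 550. The share of LTR5_Hs reads on joined copies was 15.3% for PBS (Wilson 95% interval 11.5 to 20.1), 8.39% for Vc (5.79 to 12.01), 18.0% for 5-Aza-CdR (15.1 to 21.3) and 16.3% for Combination (13.7 to 19.3). Relative to PBS, the odds of a read on a joined against a solitary copy were 1.21 times as high after 5-Aza-CdR (0.812 to 1.84) and 0.506 after Vc (0.289 to 0.874). The 78 joined copies of set 1 had 5, 8 and 6 reads.

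Joining rows by gaps of at most 100 bases, an arrangement chosen after seeing the data, gave 1336 blocks, of which 44 held HERVK-int with an LTR at both ends. In these the LTR rows and the internal rows could be read side by side. In set 2 the LTR rows had 33 reads for PBS, 26 for Vc, 103 for 5-Aza-CdR and 83 for Combination, while the internal rows, which cover 284 kb against 82.6 kb for the LTR rows, had 16, 4, 7 and 24. LTR rows held 67.3% of these reads for PBS (Wilson 95% interval 53.4 to 78.8) and 93.6% for 5-Aza-CdR (87.4 to 96.9), with 86.7% for Vc and 77.6% for Combination. The odds of an LTR read against an internal read were 7.13 times those of PBS after 5-Aza-CdR (2.48 to 22.1) and 1.68 times after Combination (0.731 to 3.77). These odds pool the insertions, over which the reads were unevenly spread. In raw counts of set 2, 15 of 43 insertions had more reads after 5-Aza-CdR than in PBS and 11 had fewer. After Combination 27 had more and 8 fewer. The insertion at chr1:155596457-155605636 held 26 of the 110 reads in 5-Aza-CdR of set 2. In set 1 the LTR rows held 9, 6 and 3 reads and the internal rows 19, 13 and 21.

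**Figure D5:**
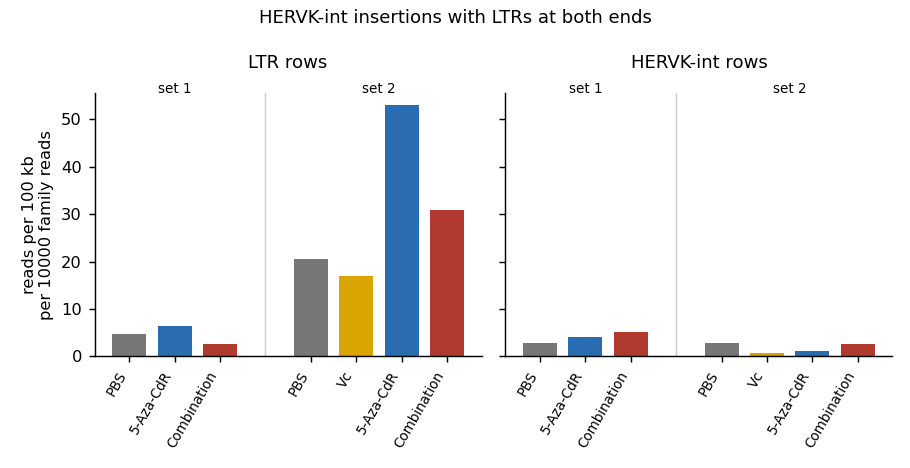
Reads per 100 kb of annotated sequence per 10000 family reads (vertical axis) on LTR rows (left) and HERVK-int rows (right) of the 44 insertions with an LTR at both ends, by library. The LTR rows reached 53.0 after 5-Aza-CdR and 31.0 after Combination of set 2, from 20.5 in PBS, and no internal value passed 5.17.

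Among these insertions, those with the most reads are named here by reads, chosen after their values were seen. The insertion at chr1:155596457-155605636 (minus strand, 9180 bases) had 1, 1 and 2 reads in PBS, 5-Aza-CdR and Combination of set 1, and 4, 4, 26 and 23 in PBS, Vc, 5-Aza-CdR and Combination of set 2. Its share in set 2 was 5.37 times that of PBS after 5-Aza-CdR (exact 95% interval 1.86 to 21.2) and 3.45 times after Combination (1.18 to 13.7). Its first LTR, chr1:155596457-155597424, was tested and had a fitted log2 change of 2.32 after 5-Aza-CdR (95% interval 0.14 to 4.51, edgeR adjusted p = 0.102) and 1.35 after Combination (adjusted p = 0.436). The insertion at chr5:156084717-156093896 had 1, 0 and 1 reads in set 1 against 3, 2, 14 and 12 in set 2. The insertion at chr3:101410737-101419859 had its highest counts in PBS, with 10, 2 and 2 reads in set 1 against 8, 3, 5 and 3 in set 2, and 10 of its reads in PBS of set 1 lay on 1 internal row, chr3:101417184-101418890.

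At single copies, 12 HML-2 loci had the 30 reads required for the locus fit, and 1 passed after 5-Aza-CdR, where 30.1% of the 409 loci tested were called. After Combination 0 passed, where 33.5% were called, and between Combination and 5-Aza-CdR 0, where no locus was called by edgeR or DESeq2 (percent called 0.0, with 7 at an unadjusted p under 0.05 in edgeR and 1 in DESeq2). The locus that passed was a fragment of HERVK-int of 133 bases at chr2:230045355-230045487 (minus strand). It had 0 reads under PBS, 26 under 5-Aza-CdR and 5 under Combination of set 1, and 0 in each library of set 2. Against a floor of 3 counts in PBS of set 1, it was at least 17.4-fold higher per family read in 5-Aza-CdR of that set, a comparison of 1 library with 1 that has no test. The joint fit of the 7 libraries gave it an edgeR adjusted p of 0.0029 after 5-Aza-CdR. It reached the 30 reads required only through the 26 in 5-Aza-CdR of set 1. The p-value therefore gives no independent support for a change, and the spread behind it was pooled over loci. The call of this copy rests on 1 library of 1 set. The copy was too low to be tested when the 5-Aza-CdR or the Combination library of set 1 was left out. For this copy the edgeR adjusted p was 0.241 without the set term, and the DESeq2 adjusted p was 0.762. Its fitted log2 change after 5-Aza-CdR was 9.29 without PBS of set 2 but 1.04 without PBS of set 1. Without PBS of set 1, its difference between Combination and 5-Aza-CdR was -2.87.

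Among the other most read copies, some had nearly all their reads in 1 set. HERVK-int at chr19:36063340-36066505 (minus strand, 3166 bases) had 15, 8 and 9 reads in PBS, 5-Aza-CdR and Combination of set 1 and 0, 0, 1 and 0 in set 2. LTR5A at chr7:56010585-56011596 had no reads in set 1 and 12, 16, 10 and 7 in PBS, Vc, 5-Aza-CdR and Combination of set 2. LTR5B at chr8:23148997-23149045, a fragment of 49 bases, had reads in each library: 14, 7 and 3 in set 1 and 4, 5, 5 and 12 in set 2. LTR5_Hs at chr6:27793624-27794403, joined to a short HERVK-int row, had 0, 1 and 1 reads in set 1 against 7, 3, 7 and 14 in set 2.

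Long internal regions, which can hold the open reading frames of the virus, had few reads. Of 35 HERVK-int rows of at least 5000 bases, the most read was chr8:8055726-8063197, with 1, 2 and 4 reads in set 1 against 1, 0, 1 and 1 in set 2. The next, chr10:101581649-101587716, had 0, 1 and 1 reads in set 1 against 2, 0, 0 and 3 in set 2. The row at chr4:3980095-3987636 had 7 reads in PBS of set 1 and none elsewhere. The remaining 2 named by the rule were chr3:101411706-101417184, with 7 reads over the 7 libraries, and chr8:12074994-12082470, with 6. None of these 5 rows had the reads required for the locus fit.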

How the data were processed

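The authors deposited raw read counts per repeat family and per annotated copy in 2 workbooks, and set 1 adds family counts given as a ratio to tRNA reads, per the file headers. Coordinates are hg19, per the labels. For set 2, Bowtie2 and Picard are named by the submitters' processing notes. What aligned set 1, what counted the reads and how multi-mapping reads were handled is not given in the sources used here. The members, lists and rules were chosen with earlier results of these data known.

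Counts were fitted in R 4.3.3 by edgeR 4.0.16 (quasi-likelihood test, trimmed mean of M-values, Benjamini-Hochberg adjustment, threshold 0.05), with treatment and set as terms. The family fit held the 352 families that passed the default filter, with 2 residual degrees of freedom and 8.92 prior degrees of freedom shared over families. The locus fit held the 409 loci with at least 30 reads over the 7 libraries. Its prior degrees of freedom were infinite, so the spread behind each locus p-value was pooled over loci. The fitting code was run on simulated counts with changes larger than those of the HML-2 families and no difference between sets. That check does not measure how well changes of their size are found. DESeq2 1.42.0, other scalings and filters, and fits without each library were alternatives. The set was used as the block because the deviations of its libraries correlated across families (r = 0.367, 0.419 and 0.622 for the 3 pairs of treatments).

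Named copies were those past the threshold, the 10 most read, the most read of each library, the 5 most read internal rows of at least 5000 bases, and tested copies with at least 3 reads in both PBS libraries. Intervals within a set are Wilson or exact conditional 95% intervals. Family reads ranged from 11531 to 32403 per library. In bulk libraries, fewer cells carrying a transcript and less RNA per cell cannot be told apart. No sequence is shown.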

Additional observations from a re-analysis of the deposited data

How the results depend on the processing

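The HML-2 family counts of 0 held under every alternative except without the PBS library of set 1, where 2 families passed after 5-Aza-CdR and 1 after Combination. Over the fits without 1 library the counts ran from 0 to 2 after 5-Aza-CdR and from 0 to 1 after Combination. Each of those fits leaves 1 library in a treatment group, whose spread is taken from the other groups. Without the replicate block (no term for set) 0 HML-2 families and 0 HML-2 loci passed. The count of 1 locus after 5-Aza-CdR was 0 without the block, with DESeq2 and with a minimum of 10 reads, and ran from 0 to 1 over the fits without 1 library. Between Combination and 5-Aza-CdR it ran from 0 to 1, with 1 without PBS replicate 1.

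Some fitted log2 changes below the threshold turned sign. Over the fits without 1 library, HERVK-int ran from -0.18 to 1.02 after 5-Aza-CdR, from -0.18 to 0.89 after Combination and from -0.70 to 0.64 between them, where it was 0.39 without Combination replicate 1. LTR5A after Combination ran from -0.41 to 0.28 (0.20 without Combination replicate 2). LTR5B after Combination ran from -0.24 to 0.37 (-0.0018 without PBS replicate 2) and was -0.15 with total reads as library size. The chromosome 2 HERVK-int copy after Combination ran from -1.83, without PBS replicate 1, to 6.44. The cause was not tested.

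Over all families, calls higher and lower after 5-Aza-CdR went from 5 and 0 to 0 and 0 without the block and to 6 and 5 with total reads, and after Combination from 8 and 1 to 2 and 0, and to 9 and 8. With no filter they were 8 and 3, and 11 and 4; without 5-Aza-CdR replicate 1, 1 and 0, and 7 and 0. Without PBS replicate 1 they were 28 and 11, and 22 and 9; without PBS replicate 2, 38 and 37, and 34 and 32. Over all loci, 123 and 137 calls became 0 and 0 without the block and 13 and 17 with DESeq2. With a minimum of 10 reads, loci higher and lower were 14 and 5, and 48 and 9. Without 1 library, loci higher after 5-Aza-CdR ran from 4 to 88 and after Combination from 0 to 100. Between Combination and 5-Aza-CdR, where none passed, families higher and lower were 6 and 5 without PBS replicate 1 and 2 and 0 without PBS replicate 2, and loci were 1 and 7 in both.

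The ratio of all HML-2 reads to PBS in set 1 was 1.54 after 5-Aza-CdR and 1.06 after Combination. Scaled by tRNA it was 4.66 and 9.53, and over the locus sheets 2.61 and 1.71. The locus total of set 1 rests largely on its most read locus, of HERVE_a-int in each library. That locus held 106889 of 133279 locus reads in PBS, 22762 of 39098 in 5-Aza-CdR and 31334 of 50826 in Combination. The locus ratios without it were not computed. With LTR12 and HERV9 left out of the total of family reads, Combination was 1.36 in set 1, and in set 2 5-Aza-CdR was 1.73 and Combination 1.63, from 1.37 and 1.19. With at least 3 reads required, the percent of copies with reads was 1.30, 0.434 and 0.372 in PBS, 5-Aza-CdR and Combination of set 1, and 1.59, 2.17, 3.13 and 4.59 in PBS, Vc, 5-Aza-CdR and Combination of set 2. Fitted changes of other copies are not reported. Depth limits most copies to 0 or 1 read.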

Other observations

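Some LTR5A copies carried many of the Vc reads of their family. The copies at chr8:145200618-145201617 and chr8:145445826-145446825, both of 1000 bases on the plus strand, had 0 reads in each library of set 1. In set 2 the first had 2 reads for PBS, 11 for Vc, 1 for 5-Aza-CdR and 1 for Combination, and the second 2, 8, 1 and 0. With chr7:56010585-56011596 at 16 reads, 3 copies held 35 of the 77 LTR5A reads in Vc. These copies were chosen after their values were seen, and Vc has 1 library.

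LTR5 had its highest counts on the pair of LTRs of 1 insertion, chr1:160660575-160669806, with no reads in set 1. In PBS, Vc, 5-Aza-CdR and Combination of set 2 its first LTR had 1, 0, 4 and 1 reads and its second 0, 1, 2 and 3, and each of its 2 internal rows had 1 read, in Combination. An LTR5B copy at chr13:111489581-111490561 had no reads in set 1, PBS or Vc, and 6 after 5-Aza-CdR and 3 after Combination of set 2. Other copies had reads in PBS of set 1 and in no other library: LTR5B at chr3:38175971-38176727 had 8, LTR5B at chr20:62291043-62292027 had 5 and HERVK-int at chr11:58770247-58772199 had 5.

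Of the 1613 rows, 131 lay within 10000 bases of an HML-2 row on the opposite strand. In set 1 these held 34 of 179 HML-2 reads in PBS, 33 of 137 in 5-Aza-CdR and 12 of 117 in Combination. Most of the 5-Aza-CdR reads came from 1 row, the HERVK-int fragment at chr2:230045355-230045487, which lies near LTR5 at chr2:230045735-230045852. That fragment held 26 of the 33 reads in 5-Aza-CdR and 5 of the 12 in Combination. In set 2 they held 20 of 425 in PBS, 17 of 428 in Vc, 27 of 706 in 5-Aza-CdR and 28 of 840 in Combination.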
